A study of Danio rerio with 2 samples.

Results

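The cells described here are macrophages from the tail of the zebrafish embryo that were sorted as carrying red fluorescence from hematopoietic stem and progenitor cells (HSPCs). Embryos at 3 days post-fertilization carried mpeg1:EGFP, a transgene driven by a macrophage promoter, together with runx1+23:mCherry, in which an HSPC enhancer drives the red protein. Tails were dissected and dissociated, and single live cells went into 2 plates of 384 wells, with EGFP+mCherry+ cells in wells 1 to 192 and EGFP+mCherry- cells in wells 193 to 384 of each plate. Transcripts were counted by SORT-seq, in which each captured molecule carries a random tag (unique molecular identifier, UMI). Both gates therefore share the same transgenes, stage, tissue and plates, and differ in the red signal and in their side of the plate. The labels do not say whether the plates were filled from different clutches of embryos or in different sorts. A tail holds other cells than macrophages, so the wells were chosen by their transcripts. A well of the mCherry+ gate was taken with at least 500 UMIs and 200 genes, at least 3 UMIs and 300 CPM in the sum of marco, mpeg1.1 and c1qa (CPM, the UMIs of a gene scaled to 1000000 UMIs of its well), lyz below 2% of UMIs, and pvalb2 below 100 UMIs. This gave 111 wells, 28 on plate 1 and 83 on plate 2, of 266 mCherry+ wells that passed the depth limits and of 534 such wells in all. The same rule in the mCherry- gate gave 104 wells, 52 on each plate.

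Macrophages clear dying and damaged cells. They bind the target through receptors and bridging molecules, enclose it, and break it down in the lysosome with acid proteases (cathepsins) and lipid hydrolases. Cargo that contains heme needs further handling: heme oxygenase (HMOX1) opens the heme ring and frees iron, ferritins store the iron, and ferroportin (SLC40A1) exports it. In the zebrafish embryo the caudal hematopoietic tissue of the tail is the site where newly formed HSPCs lodge and divide, and macrophages lie among them. Some gene symbols below are written in the human style because the table of gene names gives them so: HMOX1 stands for hmox1a or hmox1b, which could not be told apart, SLC40A1 for slc40a1, and LRP1 for lrp1aa or lrp1ab. Genes without a symbol keep their identifier.

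The chosen wells were deep. They held 12327 UMIs (median; range 3579 to 26426) on plate 1 and 12544 (543 to 39827) on plate 2, against 10128 and 8709 in the mCherry- macrophage wells. Median genes per well were 2858.5 and 3009. Macrophages made up 19.6% of the kept mCherry+ wells on plate 1 (exact 95% binomial interval 13.4 to 27.04%, counting error only) and 67.5% on plate 2 (58.4 to 75.6%). Of the 115 other kept mCherry+ wells of plate 1, 80 had no UMI of the 3 markers. At the edge, the lowest members had 317, 630 and 1190 CPM of the markers on plate 1 and 594, 608 and 680 on plate 2, while the nearest wells outside had 1 or 2 marker UMIs each. The 384 well names recur on both plates, so a well is identified by plate and number.

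The wells carried a common macrophage signature on both plates beyond the 3 genes of the rule. Leading genes were ranked by the mean difference in log2(CPM + 50) from the other kept mCherry+ wells of the same plate, which is a description, because these cells were chosen by macrophage genes. MFAP4/ENSDARG00000088745, a macrophage marker in zebrafish, led on both plates, with a median of 6724 CPM on plate 1 and 6851 on plate 2 and a UMI in 28 of 28 and 82 of 83 wells. c1ql1 followed with medians of 2524 and 3371 CPM. A second gene of the same symbol, MFAP4/ENSDARG00000090783, had medians of 1609 and 2067, and olmf4l1 had 3625 and 3126. selenop, which encodes the selenium carrier selenoprotein P, had medians of 3080 and 2464. SLC40A1, the iron exporter, stood among the 15 leading genes of each plate, and lgals2a, a galectin, did so too, with medians of 1307 and 1331. The lysosomal genes PSAP (prosaposin) on plate 1 and CTSB (cathepsin B) on plate 2 belonged to the same lists. mCherry- macrophage wells expressed these genes too. MFAP4/ENSDARG00000090783 was higher there, with medians of 2209 and 2339 CPM, and olmf4l1 had 5452 and 2744. The other genes named here had lower medians there on both plates, as MFAP4/ENSDARG00000088745 at 4945 and 4969, c1ql1 at 1866 and 1707 and selenop at 714 and 467.

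For some leading genes the level in mCherry- macrophage wells, which the ranking did not use, differed between plates. ENSDARG00000059679 had nearly the same median in mCherry+ macrophage wells of plate 1 and plate 2, at 3027 and 3240 CPM. In mCherry- macrophage wells it was 258 on plate 1 and 3545 on plate 2. The mCherry+ wells thus lay above their mCherry- counterparts on plate 1 and slightly below them on plate 2. nfkbiaa, an inhibitor of NF-κB, behaved likewise, at 2776 and 2850 CPM in mCherry+ wells against 1400 and 4008 in mCherry- wells.

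The most abundant genes were the same on both plates. ENSDARG00000080337, a gene without a symbol, took 6.84% of the UMIs of a well on average on plate 1 and 5.93% on plate 2, followed on both plates by actb2, tmsb4x and MT-CO2. It varied widely among wells, from 8 to 347 of 2000 UMIs on plate 1 and from 2 to 352 on plate 2. The heat shock gene hsp70l came next, at 1.32% and 1.18%. In mCherry- macrophage wells hsp70l took 0.32% on plate 1 and 0.93% on plate 2, so that this stress gene moved with the gate mainly on plate 1.

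Heme and iron genes were among those that differed most from well to well. Each well was thinned to 2000 UMIs to compare wells at equal depth, which kept 28 wells on plate 1 and 82 on plate 2, and genes were ranked by their variance over the mean. HMOX1 had a variance 12.6 times its mean on plate 1 and 18.01 times on plate 2. fthl27, a ferritin heavy chain gene, had 16.7 and 11.4 times. Both exceeded the macrophage receptor marco, at 4.81 and 4.27, but marco is a gene of the rule. Choosing wells by it may have narrowed its spread. HMOX1 and fthl27 were both below ENSDARG00000080337, at 68.1 and 37.9. On plate 2 col1a1a (26.7) and HBE1/ENSDARG00000087390 (24.2) also lay above them, as did ENSDARG00000070212 (17.2) on plate 1. The abundant gene actb2 had 12.5 times on plate 1, close to HMOX1, and 6.75 times on plate 2. The ratio was not adjusted for the mean level of a gene. hbae3, an embryonic globin, had the highest ratio on both plates, 167 and 146, and it reached this through single wells described further below. apoc1, an apolipoprotein, was seen in 5 of 28 wells on plate 1 and 11 of 82 on plate 2 and reached 12 and 63 of 2000 UMIs, with a variance 7.41 and 48.0 times its mean.

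HMOX1 ran from none to more than 2% of a well. On plate 1 its level over the 28 wells was 0 at the lowest, 995 CPM at the median and 18037 at the highest. On plate 2 it was 0, 997 and 23216 over 83 wells. Levels of 1000 CPM or more occurred in 14 of 28 wells (50.0%) and 41 of 83 wells (49.4%), and 5000 or more in 11 and 23 wells, whereas 2 and 16 wells had no HMOX1 UMI. The mCherry+ macrophages therefore spanned the full range from undetected to very high on both plates. Among mCherry- macrophage wells 5 of 52 on plate 1 and 3 of 52 on plate 2 reached 1000 CPM, so the gates overlapped at both ends.

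SLC40A1 was more evenly spread. Its well levels were 0 at the lowest, 1958 CPM at the median and 4917 at the highest on plate 1, and 0, 1524 and 5456 on plate 2. In mCherry- wells the medians were 117 and 172 and the highest values 4707 and 3131. Most mCherry+ wells lay above the mCherry- medians, and the ranges overlapped.

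**Figure D1:**
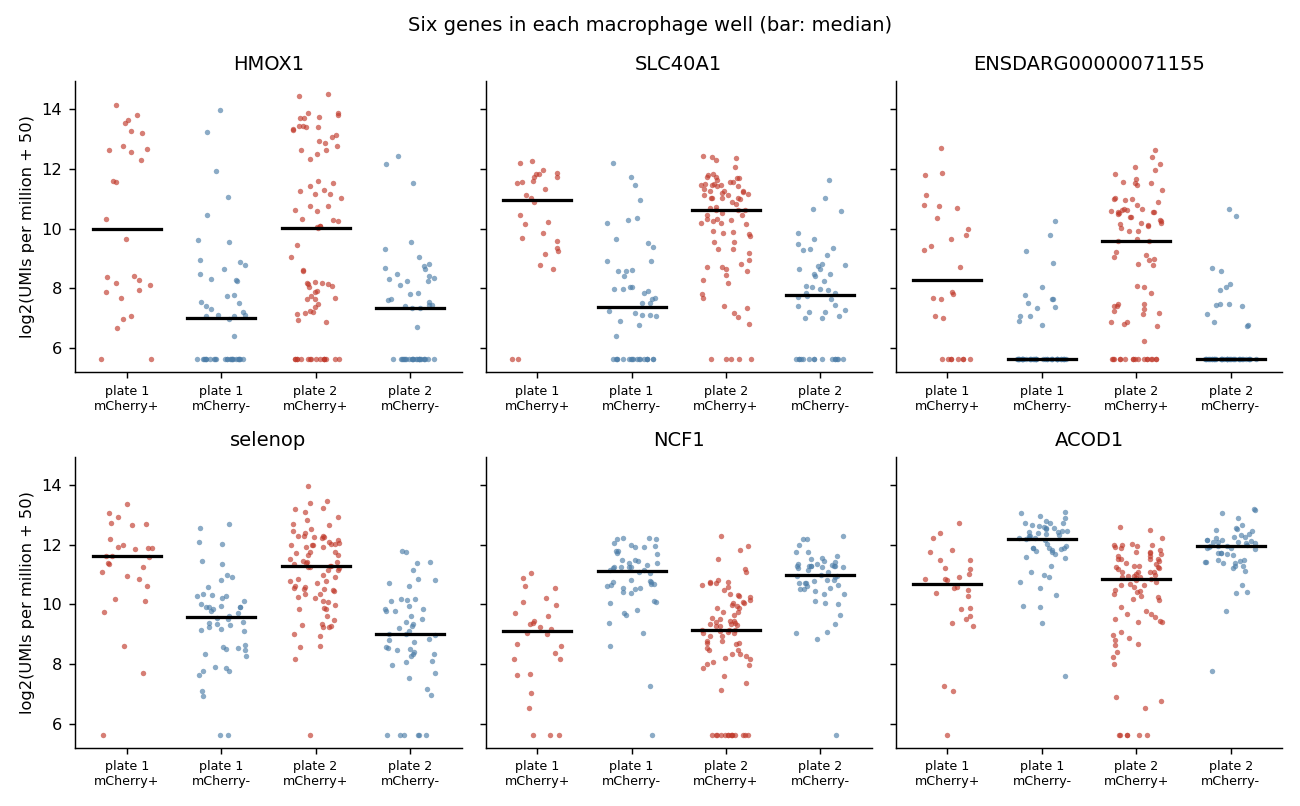
Each point is 1 macrophage well, with log2(CPM + 50) on the vertical axis and the 2 gates of each plate on the horizontal axis. The black bars are medians. HMOX1, SLC40A1, ENSDARG00000071155 and selenop had higher medians in both mCherry+ groups, NCF1 and ACOD1 had lower ones, and every panel shows overlap of the gates.

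The main axis of variation had leading genes in common on both plates. Principal components were computed on each plate separately from the thinned mCherry+ wells, over 1456 genes on plate 1 and 3876 on plate 2. The first component held 6.04% of the variance on plate 1 and 3.26% on plate 2, with HMOX1 as its leading gene on both. Of the 12 leading genes at this end, 7 were shared by the plates. They were HMOX1, SLC40A1, the cathepsin genes ctsl.1 and ctsla, rnaset2 (a lysosomal ribonuclease), UCP2 (a mitochondrial carrier) and VAT1. At the opposite end 5 of 12 were shared. They were NCF1, a subunit of the phagocyte NADPH oxidase, ACOD1, the enzyme that makes itaconate in activated macrophages, PNP (purine nucleoside phosphorylase), ENSDARG00000005419 and ENSDARG00000087353.

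Summed gene lists followed this axis. Across wells, the Spearman correlation of the first component with the heme and iron list was 0.68 on plate 1 (n = 28) and 0.62 on plate 2 (n = 82), and with the lysosome list 0.56 and 0.59. With the inflammatory list it was -0.49 and -0.65. These wells share a plate and a depth of 2000 UMIs, and the component was computed from the same counts as the lists, so the values describe these wells. The correlation with the UMIs of the well before thinning was 0.40 on plate 1 and 0.15 on plate 2. Between lists that share no gene, heme and iron rose with lysosome across wells with correlations of 0.64 and 0.53, and in mCherry- macrophage wells the correlation was 0.48 and 0.08. The inflammatory list and the chemokine list, without the gene they share, had correlations of 0.49 and 0.48 in mCherry+ wells. The difference between the gates in these values was not tested.

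**Figure D2:**
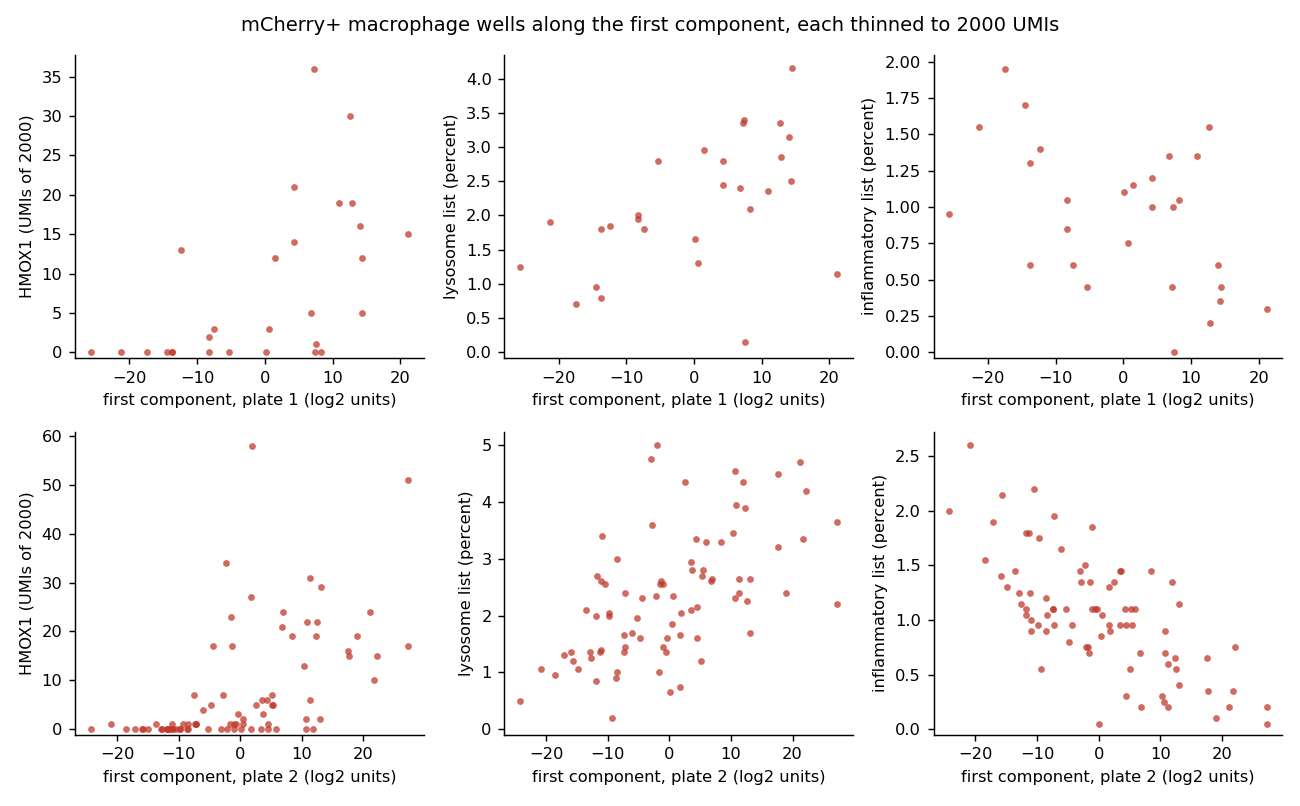
Each point is 1 mCherry+ macrophage well thinned to 2000 UMIs, plotted by its score on the first component of its plate (log2 units) against HMOX1 UMIs and against the percent of UMIs in the lysosome and inflammatory lists. HMOX1 and lysosome values are higher toward the right and inflammatory values higher toward the left, with Spearman correlations of 0.56 and 0.59 for lysosome and -0.49 and -0.65 for inflammatory genes.

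Genes most like HMOX1 across wells were ranked by the mean Spearman correlation on the 2 plates, over 500 genes with a mean of at least 0.5 UMIs per thinned well. fthl27 was first, with a correlation of 0.77 on plate 1 and 0.55 on plate 2. UCP2 followed at 0.60 and 0.40, and the ferritin gene fthl31 at 0.63 and 0.32. POR/ENSDARG00000059035, a cytochrome P450 reductase that also passes electrons to heme oxygenase, had 0.49 and 0.41, and SLC40A1 0.41 and 0.44. These are enzymes, storage proteins and exporters of the same heme and iron route. The gene farthest in the other direction was ENSDARG00000005419, at -0.65 and -0.31, and NCF1 had -0.42 and -0.32. In mCherry- macrophage wells fthl27 had correlations of 0.24 and 0.20 with HMOX1, and fthl31 had -0.03 and 0.14. Others were closer to their mCherry+ values on at least 1 plate. UCP2 had 0.47 and 0.36 there, SLC40A1 0.44 and 0.13, and POR/ENSDARG00000059035 0.39 and 0.11. The difference between the gates in these correlations was not tested.

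The second component held 5.33% and 2.53% of the variance, close to the first. Its 12 leading genes at the positive end had selenop in common between plates, and those at the negative end ENSDARG00000093817 and hmga1a. The list of resident macrophage genes, which selenop belongs to, followed it on both plates with correlations of 0.64 and 0.56. The list of cholesterol and lipid genes had correlations of 0.52 and 0.40. With each other, without their shared gene, these lists had correlations of 0.69 on plate 1 and 0.35 on plate 2.

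To ask how macrophages with red material differ from those without, UMIs were summed over the macrophage wells of each gate on each plate. Because wells of 1 plate are not replicates, the comparison rested on these 4 sums. edgeR's quasi-likelihood test with the plate as a block was run on 5224 genes, leaving out the 5 genes of the rule. At an adjusted p below 0.05 it called 60 genes, 1.15% of those tested, of which 42 (0.804%) were higher and 18 (0.345%) lower in mCherry+ macrophages. At an unadjusted p below 0.05 there were 895. Each of the 60 kept its sign from plate to plate. The number is not firm, since 57 of the 60 had an adjusted p from 0.03 to 0.05. Setting the lyz limit at 0.5%, which removed 1 mCherry- well of plate 1, left 2 calls, while scaling by DESeq2's size factors within edgeR gave 169 (101 higher and 68 lower) and DESeq2 itself 116 (58 in each direction). No called gene changed sign under any of the settings tried, and HMOX1 was called under all 12 that gave a test. In simulated sums the test recovered 72.6% of genes changed 4-fold and 8.65% of those changed 2-fold. The simulation had 1 dispersion for all genes and no plate difference, so these shares need not hold for the real counts.

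Among heme and iron genes, HMOX1, SLC40A1 and SLC48A1/ENSDARG00000026109 were higher in mCherry+ macrophages. These were the 3 called of 9 list members tested, and 8 were higher on both plates. The list median log2 fold change was 1.00 against 0.02 over all genes tested. Of those 5224 genes, 42 (0.804%) were called higher and 1718 were higher on both plates. Summed per well, the list took 0.895% of UMIs in the median mCherry+ well of plate 1 against 0.786% in mCherry- macrophages, where the lower quartiles were 0.429% and 0.61%. On plate 2 the medians were 0.696% and 0.293%. The 28 mCherry+ wells of plate 1 held 1803 HMOX1 UMIs and the 83 of plate 2 held 3913, against 349 and 178 in the 2 groups of 52 mCherry- wells. This was a log2 fold change of 3.2005 (SE 0.19, edgeR adjusted p = 0.0119), and the single plates gave 2.98 and 3.41. The adjusted p was at most 0.0496 over the 12 settings. At 2000 UMIs per well a HMOX1 UMI was present in 60.7% of plate 1 mCherry+ wells (exact 95% interval 40.6 to 78.5%) and 63.4% on plate 2 (52.0 to 73.8%). In mCherry- macrophages the shares were 19.6% and 30.8%. In wells rich in lyz, a neutrophil gene, they were 13.3% and 14.6%, with median depths of 8863 and 8583 UMIs before thinning. HMOX1, SLC40A1, ctsl.1 and LRP1 were among the genes that the study itself drew from these samples, so their direction here is not independent evidence.

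Ferroportin and a heme carrier moved with it. SLC40A1 summed to 755 and 1783 UMIs in mCherry+ macrophages against 244 and 164, a log2 fold change of 2.32 (SE 0.19, edgeR adjusted p = 0.0257, called under 9 of 12 settings). SLC48A1/ENSDARG00000026109, which carries heme out of the phagolysosome, had 63 and 105 UMIs against 9 and 4, a log2 fold change of 3.50 (SE 0.37, adjusted p = 0.0334, edgeR). It was seen in 13 and 32 mCherry+ wells, so its median well was at 0. The ferritin genes gave a mixed picture. fthl27 had a log2 fold change of 0.72 (edgeR adjusted p = 0.257), with well medians of 1886 CPM in mCherry+ and 4904 in mCherry- wells on plate 1 but 2221 and 1313 on plate 2. fth1a, another ferritin heavy chain gene, was at -0.44 (edgeR adjusted p = 0.34).

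Lysosomal genes were mostly fitted higher, and few passed the test. Of 27 lysosomal genes tested 25 had a higher fitted level in mCherry+ macrophages, with a list median of 0.89. On both plates 22 were higher and none was lower. Among all 5224 genes tested, 2714 were fitted higher, 1718 were higher on both plates and 42 (0.804%) were called higher. Of the 27 lysosomal genes 5 passed the test, all higher and most of them proteases. ctsl.1, a cathepsin L gene, had 639 and 1024 UMIs against 278 and 119, a log2 fold change of 1.94 (SE 0.20, edgeR adjusted p = 0.0334). Its well medians were 781 and 671 CPM in mCherry+ macrophages and 179 and 118 in mCherry- macrophages. ctsla, of the same family, was higher by a log2 fold change of 1.88, CTSK (cathepsin K) by 1.83 and CTSD (cathepsin D) by 1.41. PSAP, whose product is cut into activators of sphingolipid hydrolases, was higher by 1.04 and was called under 4 of 12 settings. Not past the test were LGMN (legumain) at 1.48 (edgeR adjusted p = 0.119) and NPC2, a carrier of lysosomal cholesterol, at 1.25 (0.0557). Summed over the list, lysosomal genes took 2.04% of the UMIs of the median mCherry+ well on plate 1 and 2.26% on plate 2, against 1.23% and 1.04% in mCherry- macrophages. In lyz-rich wells the medians were 0.505% and 0.530%. Of 16 genes of the vacuolar ATPase, the acid pump of the lysosome, none was called, 7 were fitted higher and 9 lower, and the median was -0.12.

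**Figure D3:**
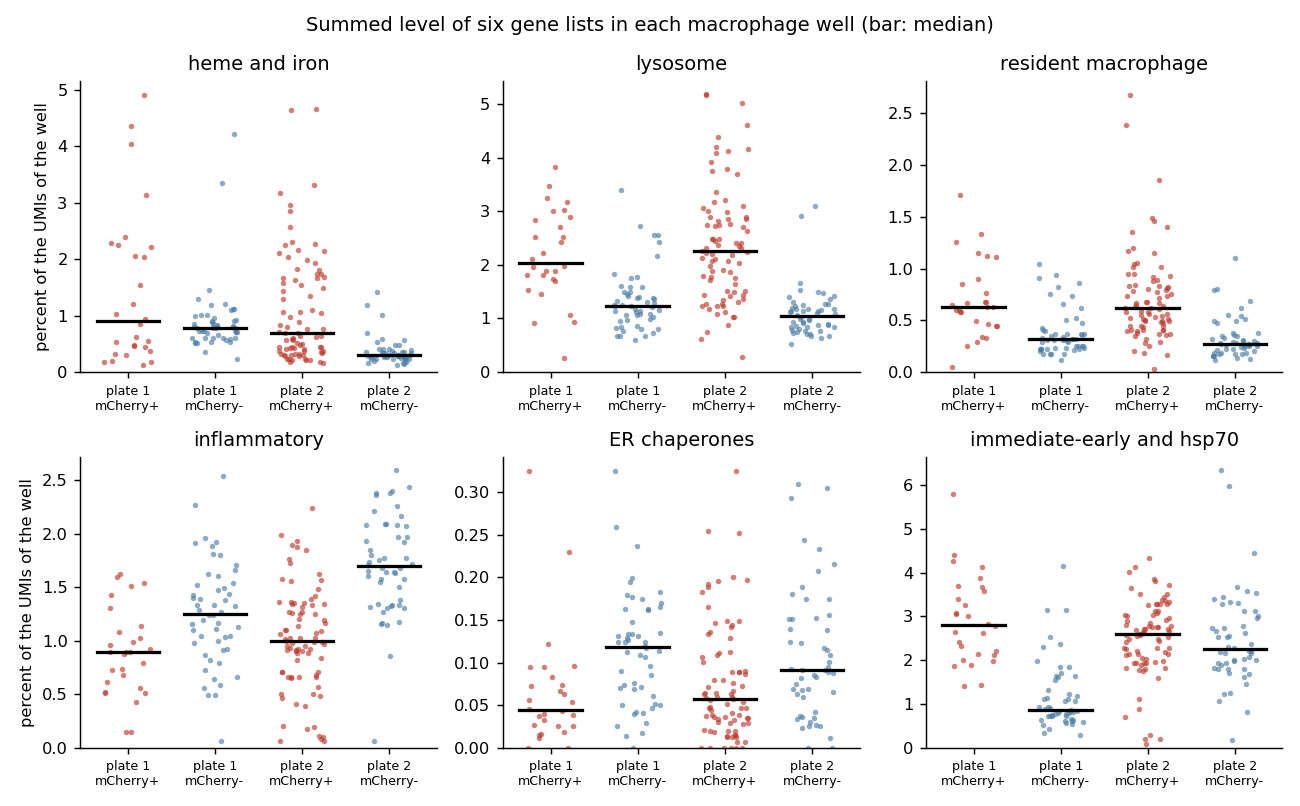
Each point is 1 macrophage well, the vertical axis is the percent of its UMIs in a gene list, and the black bars are medians. The lysosome medians of the mCherry+ groups are 2.04 and 2.26% against 1.23 and 1.04%, the inflammatory medians are lower at 0.893 and 0.999% against 1.25 and 1.70%, and the immediate-early and hsp70 list separates the gates on plate 1 more than on plate 2.

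Other called genes that were higher included a set with many UMIs and no defined role here. ENSDARG00000071155, without a symbol, had 284 and 1182 UMIs in mCherry+ sums against 41 and 39. Its log2 fold change was 3.65 (SE 0.26, edgeR adjusted p = 0.0173), called under 10 of 12 settings. Well medians were 277 and 729 CPM in mCherry+ macrophages and 0 in both mCherry- groups. selenop had 1155 and 3471 UMIs against 631 and 434, a log2 fold change of 1.73 (SE 0.19, edgeR adjusted p = 0.0334). It was 1 of 2 called members of 14 resident macrophage genes, and the other was SLC16A9, a monocarboxylate transporter, at 3.09. Both were higher, against 0.804% called higher over all genes tested. VAT1 (log2 fold change 1.67), igf2b, an insulin-like growth factor (2.61), ATP13A2, a lysosomal polyamine transporter (2.88), and CPT1B, which admits fatty acids to mitochondria (3.46), were also called as higher and were singled out after their values were seen. RXRA/ENSDARG00000057737, a nuclear receptor that pairs with lipid-sensing partners, was higher by 2.72.

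**Figure D4:**
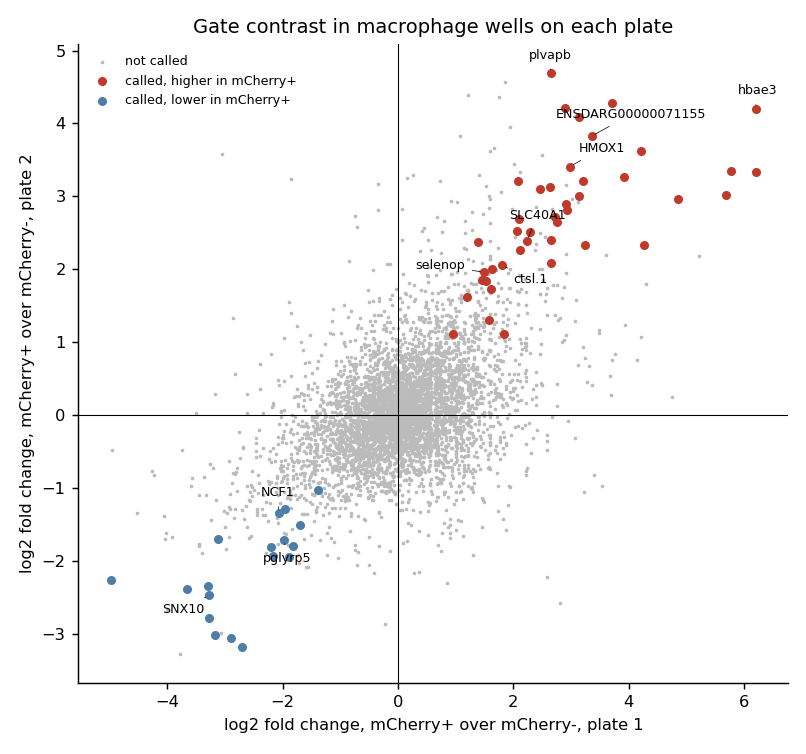
Each point is 1 of the 5224 genes tested, with the log2 fold change of mCherry+ over mCherry- macrophages on plate 1 (horizontal) and on plate 2 (vertical). The 60 called genes, 42 higher and 18 lower, lie in the 2 quadrants where the plates share a direction, with HMOX1 at 2.98 and 3.41.

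The 10 largest rises among called genes, with at least 50 UMIs and seen in at least 10 wells, included several whose sums came from single wells. hbae3 summed to 1945 and 1383 mCherry+ UMIs against 39 and 35, and 98.6% of those on plate 1 came from 1 well. The embryonic globins hbae1.3, HBE1/ENSDARG00000045143 and HBE1/ENSDARG00000087390 had 98.7%, 97.5% and 98.7% of their plate 1 UMIs in 1 well, and and1, which encodes a fin fold protein, had 94.5%. Without the highest well of each gene, hbae3 had a log2 fold change of 0.19 and HBE1/ENSDARG00000087390 of 0.48. ENSDARG00000090467 had 95 UMIs in mCherry+ and 3 in mCherry- wells, a ratio of 23.8 per UMI sequenced (95% counting interval 7.91 to 118), and 92.0% of its plate 1 UMIs lay in 1 well.

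Other large rises came from more wells, except that plvapb had most of its plate 2 UMIs in 1 well. ENSDARG00000041190 had 13 and 65 UMIs over 9 and 28 mCherry+ wells and none in 104 mCherry- wells. Against a floor of 3 counts over the mCherry- group it was at least 19.6-fold higher. tcnbb, a vitamin B12 carrier, had 37 and 266 UMIs against 5 and 6, in 7 and 31 wells, with a log2 fold change of 4.01 (SE 0.41, edgeR adjusted p = 0.0334). ADGRG6, an adhesion receptor coupled to G proteins, had 65 and 176 UMIs against 12 and 3, in 15 and 38 wells, at 3.69 (SE 0.47). plvapb, known from fenestrated endothelium, had 22 and 141 UMIs against 4 and 1 in 11 and 24 wells, with a log2 fold change of 4.27 (SE 0.64), and 56.7% of its plate 2 UMIs came from 1 well.

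The inflammatory genes bcl3, il12a and ACOD1 were lower in mCherry+ macrophages. These were the 3 called of 21 tested members, with a list median of -0.88. Of the 21, 17 were lower on both plates and 1 higher on both. Over all 5224 genes tested, 18 (0.345%) were called lower, and 1570 were lower and 1718 higher on both plates. bcl3, a nuclear partner of NF-κB, had 3 and 7 UMIs in mCherry+ sums against 196 and 23, a log2 fold change of -4.00 (SE 0.61, edgeR adjusted p = 0.0493). The share of mCherry- UMIs that came from the highest well was not computed for this or the other falls. il12a, a subunit of interleukin 12, had 1 and 5 UMIs against 22 and 33, at -3.71 (SE 0.53). ACOD1 was abundant in both gates. It had 634 and 2012 UMIs against 2535 and 2005, well medians of 1620.5 and 1790 CPM against 4678 and 3929, and a log2 fold change of -1.21 (SE 0.16, edgeR adjusted p = 0.0449). The members were not uniform: tnfb, a tumor necrosis factor gene, was at 0.90 (edgeR adjusted p = 0.384) and nfkbiaa at 0.04 (0.964).

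The remaining falls included genes of oxidant production and signaling. NCF1 had 203 and 794 UMIs against 1310 and 983, with well medians of 502 and 520 CPM against 2179 and 1964, and a log2 fold change of -1.70 (SE 0.23, edgeR adjusted p = 0.0454). It was the called member of 19 genes of macrophage identity, whose median was -0.47. slc7a11, which imports cystine for glutathione, fell by 3.19 on the log2 scale and was the called member of 14 antioxidant genes. Over all genes tested 0.345% were called lower. marcksl1b, an actin-linked substrate of protein kinase C, fell by 1.63, pglyrp5, a peptidoglycan recognition protein, by 1.85 and PRDM1, a transcriptional repressor, by 2.07. These last genes were likewise picked after their values were known. Of the 10 largest falls, hunk and PRKCQ are kinases, cyth4a activates ARF proteins, SNX10 is a sorting nexin of endosomes, sult5a1 is a sulfotransferase and MOXD1 an oxygenase. Their log2 fold changes were -3.76, -2.09, -3.22, -2.93, -3.48 and -3.21. ENSDARG00000008423 completed the 10 at -2.41, with 77 and 213 UMIs against 1039 and 341.

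None of 12 engulfment genes and none of 11 cholesterol and lipid genes was called, which with 1.15% called over all genes says little of these groups. Their medians were 0.40 and 1.16, and 9 and 10 of them were fitted higher. Among all 5224 genes tested, 2714 were fitted higher and 2510 lower. LRP1, an endocytic receptor that the study named from these samples, had 48 and 146 UMIs against 18 and 3, a log2 fold change of 2.92 (edgeR adjusted p = 0.0658). havcr1, a phosphatidylserine receptor of the TIM family, was at 0.96 (0.0877). apoeb and apoc1, apolipoproteins, were at 2.93 (0.0995) and 2.87 (0.0922). ABCA1, a cholesterol exporter, was at 1.69 (0.174), and the p-values in these sentences are adjusted values from edgeR. Of 9 chaperones of the endoplasmic reticulum none was called and 8 were fitted lower, with a median of -0.92. Among them CALR, the gene for calreticulin, was low in both gates, with 20 and 73 UMIs in mCherry+ wells and 16 and 33 in mCherry- wells, at a log2 fold change of 0.44 (edgeR adjusted p = 0.613).

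Stress-response transcripts moved with the gate on plate 1. The immediate-early and hsp70 list took 2.80% of UMIs in the median mCherry+ well and 0.865% in the median mCherry- well of plate 1, and 2.61% and 2.24% on plate 2. None of its 22 genes was called, against 1.15% of all genes tested. The list median log2 fold change was 0.93 for plate 1 and -0.25 for plate 2. FOS, an immediate-early factor, had 253 and 903 UMIs against 27 and 246. These counts are not scaled to the size of the sums. The sums held 344511 and 1056721 UMIs in mCherry+ macrophages against 543832 and 510179 in mCherry- macrophages. Depth moved with the gate as well, as given above. The part of either in the differences between the gates was not tested. In wells thinned to a common depth 2 genes were called, HMOX1 among them.

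Most HSPC genes were at or near 0 in these macrophages. Of 22 matched, 4 had no UMI, 12 had 1 to 10 and 6 had more than 10 among 1401232 UMIs. RUNX1, the transcription factor that marks emerging HSPCs, had no UMI in 111 wells, which allows up to 2.70% of wells with a UMI and a level of up to 2.14 CPM, and gata2b likewise had none. MYB had 5 UMIs in 5 wells. The list as a whole took 0.0201% and 0.0285% of UMIs in the median mCherry+ well and 0.0428% and 0.0569% in the median mCherry- well. CEBPA, which macrophages express too, held the largest part, with 337 UMIs in 86 wells, and cd34, which endothelium shares, had 115 UMIs in 11 wells. The tables hold no row for either transgene, so the red material itself has no transcript measure here, and the name of the wells rests on the gate.

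A few wells carried transcripts of other lineages. Well 167 of plate 1 had 13.3% of its 23063 UMIs in globin genes and well 16 of plate 2 had 11.11% of 16572. The next highest wells had 0.0715% and 0.507%. Both globin-rich wells met the macrophage rule with 31 and 121 marker UMIs, and their HMOX1 levels were 11970 and 7473 CPM. Across all mCherry+ macrophage wells at 2000 UMIs, the heme and iron list and the globin list had Spearman correlations of 0.09 and 0.01. At that depth only 7 of 28 and 15 of 82 wells had a globin UMI. No globin UMI was seen in 7 and 23 mCherry+ macrophage wells, and the medians were 0.0143% and 0.0092%. Without the globin-rich wells 26 genes were called between the gates, and HMOX1 remained among these. Fibroblast genes exceeded 1% in 1 well of plate 1 (2.16%) and 3 wells of plate 2 (up to 2.14%), and epithelial genes in 2 wells of plate 2 (up to 2.34%). No mCherry- macrophage well passed 1% in these lists. Well 130 of plate 2 was the deepest mCherry+ macrophage well of its plate, at 39827 UMIs. It was the highest of that plate for the endothelium list (0.506%) and the HSPC list (0.327%). These lists share tek and FLI1, and endothelium also expresses cd34 of the HSPC list. The part of such shared genes in both values of this well was not tested. col1a1a, a collagen gene called as higher, was seen in 15 and 39 wells and reached 12674 and 18832 CPM in its highest wells, with 86.6% and 50.7% of its UMIs in those wells.

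Muscle genes formed a background of both gates, with medians of 0.320% and 0.866% in mCherry+ and 0.244% and 0.893% in mCherry- wells of plates 1 and 2. The muscle list holds pvalb2, which the rule limits, so its highest levels were partly set by the choice of wells. In the other kept mCherry+ wells its medians were 0.391% and 1.88%. Neutrophil genes were at medians of 0.129% and 0.120%, against 0.165% and 0.132% in mCherry- macrophages and 9.92% and 12.9% in lyz-rich wells. This list holds lyz, which the rule limits in macrophage wells and by which lyz-rich wells were chosen. Part of the contrast with lyz-rich wells was therefore set by the choice of wells. Of the called falls, NCF1 was seen in 77.3% and 87.8% of lyz-rich wells at 2000 UMIs, sult5a1 in 37.3% and 29.3% and slc7a11 in 30.7% and 31.7%. Other falls were rarer there. ACOD1 was seen in 13.3% and 19.5%, bcl3 in 5.33% and 2.44% and il12a in 0% on both plates. hunk, cyth4a, MOXD1, SNX10, ENSDARG00000008423 and PRKCQ were each seen in at most 7.32% on either plate. The inflammatory list took 1.13% and 1.302% of UMIs in the median lyz-rich well, above the mCherry+ macrophage medians of 0.893% and 0.999%. The part of neutrophil RNA in these values was not tested. Thrombocyte and neuron lists were at a median of 0 on both plates. No caller of doublets was run on these wells. Leaving out the wells above 1% in the globin, fibroblast, epithelium or endothelium lists, a setting added after the data were seen, kept 103 mCherry+ wells and called 140 genes, 52 of them among the original 60.

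**Figure D5:**
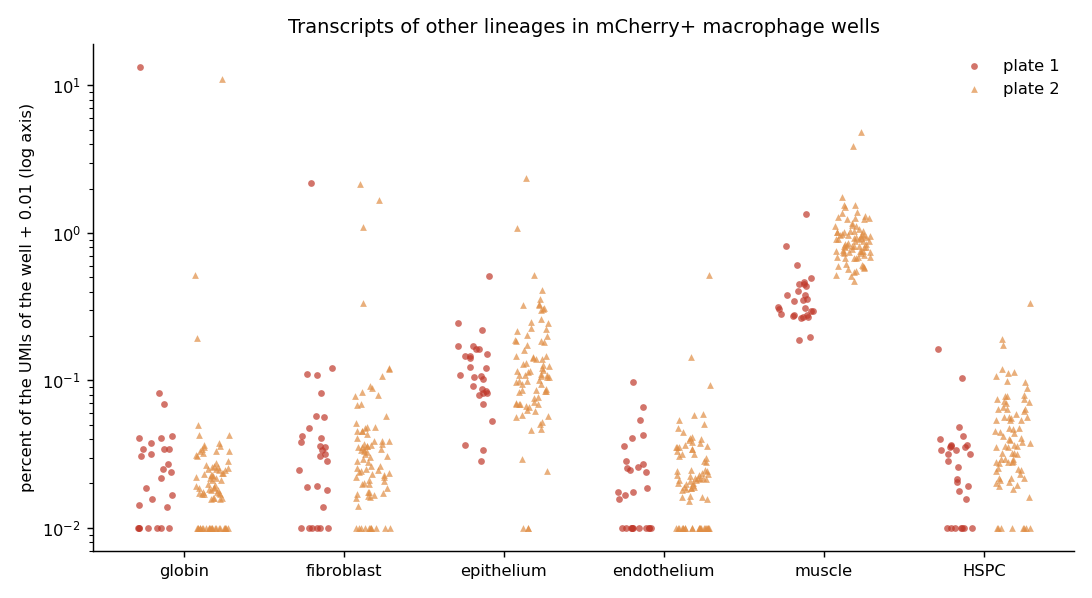
Each point is 1 mCherry+ macrophage well, plotted by the percent of its UMIs in lists of genes of other lineages on a log axis, after adding 0.01. Globin transcripts reached 13.3% and 11.11% in 1 well of each plate, while muscle transcripts were present in every well at higher levels on plate 2, and HSPC genes reached at most 0.327%.

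The wells with the fewest lysosomal transcripts also had few marker UMIs. Well 123 of plate 1, with 6 marker UMIs at 317 CPM, had 0.270% of its UMIs in lysosomal genes and no SLC40A1. It was also the highest well of its plate for the neuron list, at 0.259%. Well 156 of plate 2, with 5 marker UMIs, had 0.277% in lysosomal genes, no SLC40A1, and 1.13% in cell-cycle genes. Cell-cycle transcripts were otherwise rare, with medians of 0.0320% and 0.0253%. Levels above 0.25% occurred in 3 of 28 and 6 of 83 mCherry+ wells and in 3 and 11 of the 52 mCherry- wells of each plate. None of 18 cell-cycle genes was called between the gates, against 1.15% of all genes tested. A lower fitted level was found for 17 of them, against 2510 of all 5224 genes. The cell-cycle median was -0.43 (0.22 on plate 1 and -0.97 on plate 2).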

How the data were processed

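Single tail cells were sequenced by SORT-seq on 2 plates of 384 wells. The deposited values are expected counts: the authors counted UMIs per gene and well and corrected them for tags drawn more than once, so that they need not be whole. Every value matched that correction for a 6-base UMI (4096 tags) within 0.00499, and it added 3.81% and 6.93% to the UMIs of plates 1 and 2. The submitters' processing notes name BWA, Seurat and GRCz11. Spike-in rows (1.13% of UMIs) were left out. Of 22342 genes 17425 had a symbol, and 426 of 554 listed symbols were matched. calr3a, calr3b, il1b and vcam1a were not analysed here. SORT-seq tags the poly(A) end, so that UMIs were not divided by gene length.

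Wells were chosen as given in the report. The members, the gene lists and the tests were chosen with earlier results of these data known. For the gate comparison, UMIs were summed per plate and gate, rounded to whole numbers, passed through filterByExpr to remove low counts, normalised by TMM, and tested in edgeR 4.0.16 (R 4.3.3) with plate as a block, Benjamini-Hochberg adjusted over all genes tested. The labels state that each plate held both gates to account for batch, so the plate number pairs the sums. This left 1 residual degree of freedom, to which edgeR added a prior of 5.14 degrees of freedom drawn from all genes. The p-values therefore rest on the spread between these 2 plates, moderated strongly toward the spread shared over genes. Fold changes of a single plate were differences of TMM-scaled log2 values (prior count 2), without a test. The 10 largest rises and falls among called genes with at least 50 UMIs and 10 wells were named, with the genes of the study, leading and variable genes and list members with most UMIs or called. The fit was tested on simulated data of 4895 genes, where 2.23% of calls were false. These draws used 1 dispersion for all genes and the same mean profile on both plates. They were made for the 4 sums, so single wells with extreme counts were not modelled. The simulated shares therefore need not hold for the real counts. DESeq2 1.42.0 was an alternative. Thinning, components and correlations used Python 3.11.15, numpy 2.4.6, pandas 2.3.3 and scipy 1.17.1. Figures used matplotlib 3.10.9. Intervals and floors cover counting error only.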

Additional observations from a re-analysis of the deposited data

How the results depend on the processing

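The number of genes called between the gates moved widely, and the direction of called genes did not. Against 60 calls (42 higher, 18 lower), DESeq2's size factors within edgeR gave 169 (101 and 68), no filter on low counts 469 (264 and 205), DESeq2's Wald test 116 (58 and 58), and leaving out the highest well of each gene 158 (83 and 75). Without the replicate block for the plate there were 103 calls (72 and 31), 55 of them among the 60. Fewer calls came from wells of at least 2000 UMIs (3), wells thinned to 2000 UMIs (2), the marker rule without c1qa (3), a stricter marker rule of 6 UMIs and 600 CPM (1), lyz under 0.5% (2) and wells without the globin-rich ones (26). Leaving out wells rich in other lineages, added after seeing the data, gave 140 (81 and 59). The causes of these shifts were not tested, except that the minimum of 2000 UMIs removed 2 wells, the lyz limit 1 well, and thinning left 1486 genes to test.

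HMOX1 was called under all 12 settings, and 44 of the 60 genes under at least 6. Unadjusted counts below 0.05 ranged from 794 to 929 in fits of like gene number. With either plate left out no test remained, and HMOX1 was 2.98 or 3.41. In the simulated sums of 2 plates a 2-fold change was mostly below detection.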

Other observations

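Of 9 chemokine genes none was called, with 5 fitted higher and 4 lower in mCherry+ macrophages and a median log2 fold change of 0.59 on plate 1 and -0.30 on plate 2. Of 17 macrophage transcription factors none was called, and 11 were fitted lower, with a median of -0.29. Only 3 interferon genes and 4 antigen presentation genes had enough UMIs to be tested, and none was called. The share called over all genes tested was 1.15%.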
